A study of Homo sapiens with 3 samples.

Results

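The regions described here are the peaks of DKK-1 chromatin immunoprecipitation on human chromosome 10, 509 of the 8723 peaks of the whole series. A peak is a stretch of the genome where the peak caller MACS found more sequenced fragments (tags) in the immunoprecipitate than its background model expected. The peaks were chosen by position and by having been called, that is, every row of either of the authors' 2 peak lists on chromosome 10 of the hg18 build was taken, and a row with the same start and end in both lists was counted once. A peak was called on a P value of 1e-05 or less, so that its tags, score and fold enrichment had already selected it and are given as descriptions without a test.

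The study sequenced 3 libraries from DLD-1, a human colorectal adenocarcinoma cell line. The DLD-1/DKK-1 library was the immunoprecipitate of cells transduced with a lentiviral, doxycyclin-inducible (Tet-On) DKK-1 that carries a V5 tag. The DLD-1/Mock library was the immunoprecipitate of the mock line, and the third library was a pool of input DNA, for which no line is named in the sources used here. The sample labels give a V5 antibody for both immunoprecipitates and the study's methods give a DKK-1 antibody, and neither states the duration of DKK-1 induction for this assay. After MACS had limited duplicates the libraries held 21312041, 24151009 and 27723787 tags in the order given. With 1 library per condition no difference could be set against replicate error, and both peak lists were made from 1 DLD-1/DKK-1 library, so that a peak present in both is no replicate observation.

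DKK-1 is best known as a secreted protein that binds the LRP co-receptors and so blocks Wnt/β-catenin signalling, the pathway that drives growth of the intestinal epithelium and of most colorectal tumors. Chromatin immunoprecipitation pulls down a protein with the DNA it is bound to directly or through other proteins, and the density of tags along a chromosome also follows the number of copies of each segment in the cells and how uniquely reads align there. The gene DKK1 itself lies on the long arm of chromosome 10.

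The promoter of CUEDC2 is shown because, of the 6 chromosome 10 sites to which the authors' list of specific sites gives a gene, the one at CUEDC2 was alone in covering the start of the transcript. The other peaks were not compared with transcript starts. CUEDC2 encodes a protein with a CUE domain, which binds ubiquitin. The peak lay at chr10:104182125-104182742 (hg18), was 618 bp wide and held 22 tags. The window from 250 bases before to 50 bases after the transcript start, which in hg18 is chr10:104182363-104182662, lay entirely within it. The 250 bases before the start are printed 5′ to 3′ from the RefSeq promoter in GRCh38.p14 (chr10:102432575-102432824, minus strand). Whether RefSeq places the start at the same base as the hg18 transcript was not checked. Capitals mark CTTTGAT, a core recognised by the TCF/LEF factors of the Wnt pathway, which was searched on both strands (as CTTTGAT and as ATCAAAG) after the sequence had been read.

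CUEDC2 promoter: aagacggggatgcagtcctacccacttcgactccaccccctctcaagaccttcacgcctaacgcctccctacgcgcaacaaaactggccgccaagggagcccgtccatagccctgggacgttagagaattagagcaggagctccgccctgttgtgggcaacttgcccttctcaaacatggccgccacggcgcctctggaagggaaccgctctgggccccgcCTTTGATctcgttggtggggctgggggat

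The 1 match began 29 bases before the start, on the strand of the gene. Of the 35116 RefSeq promoter windows that run from 250 bases before to 50 after a start, 919 (2.62%) held the motif on either strand. Because the motif was chosen after this sequence had been read, that share does not measure how unusual the match is. That window of CUEDC2 was 64.7% G and C and held 25 CpG dinucleotides, against a median of 14 over all windows. A match of letters is a description of the sequence and does not show that a factor was bound.

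The peaks were concentrated on the short arm. With the arms divided at 40 Mb, 343 peaks (67.4%) lay on the short arm and 166 on the long arm, which is 8.57 peaks per Mb on the short arm and 1.74 on the long arm. The density on the long arm was therefore 0.203 of that on the short arm. The same held in each list alone, since the list against DLD-1/Mock had 6.42 peaks per Mb on the short arm and 1.21 on the long arm, and that against input had 5.62 and 1.12. Every one of the 39 windows of 1 Mb up to the last peak of the short arm held at least 1 peak, whereas 70 of 94 did between the first and last peak of the long arm. The distance from one peak to the next had a median of 67057 bp on the short arm and 292131 bp on the long arm.

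In windows of 5 Mb the 8 windows of the short arm held 27 to 66 peaks each (median 39). The busiest was that from 30 to 35 Mb with 66 peaks, or 13.2 per Mb, followed by 15 to 20 Mb with 55, 10 to 15 Mb with 51, 25 to 30 Mb with 41 and 20 to 25 Mb with 37. The end of the short arm was less dense, with 35 peaks in the outermost 5 Mb and 31 in the next. On the long arm the window from 40 to 45 Mb held 10 peaks, the window from 45 to 50 Mb held 31 and that from 50 to 55 Mb held 16. Beyond 50 Mb the 18 windows held 1 to 16 peaks (median 6.5), below every window of the short arm. A stretch of 3.81 Mb without a peak, from 38557380 to 42366636, spanned the boundary at 40 Mb, which lies within the centromeric region in hg18. How much of that stretch, or of the window from 40 to 45 Mb, reads can align to uniquely was not measured. The widest stretch without a peak, 4.03 Mb, lay on the long arm between 76796531 and 80830101.

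**Figure D1:**
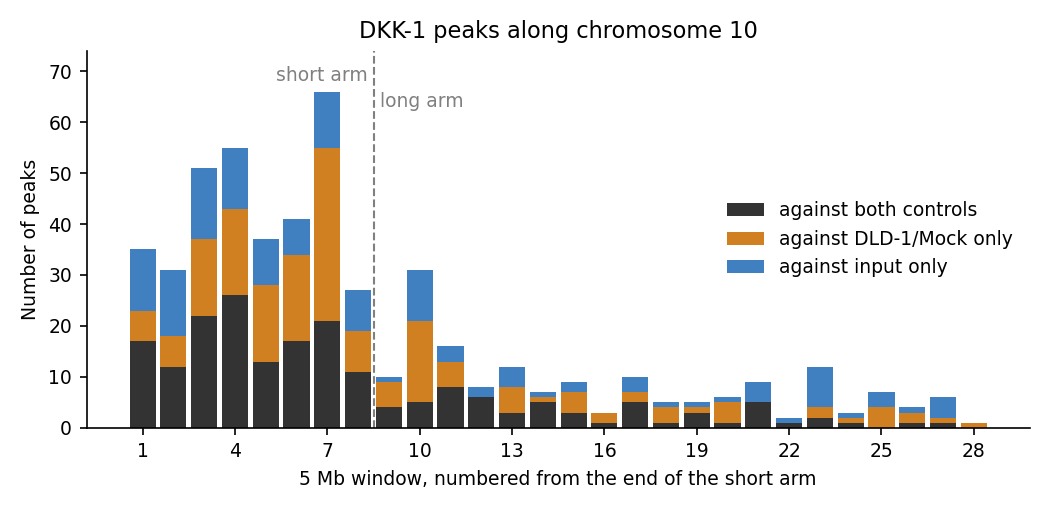
Number of peaks (vertical axis) in each 5 Mb window of chromosome 10 (horizontal axis, numbered from the end of the short arm), stacked by the control against which the peak was called; the dashed line divides the arms at 40 Mb. The 8 windows left of the line hold 27 to 66 peaks, and the windows from the eleventh on hold at most 16.

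Within the short arm the densest place was a run of 22 peaks in 93753 bp, at chr10:33218768-33312520, which made up 6.41% of the peaks of that arm. The run spans 3 groups of 3 or more peaks, each joined within 10000 bp, and its edges follow from that rule. Of its peaks, 14 were called against DLD-1/Mock only, 8 against both controls and 0 against input only. Over the 509 peaks of the chromosome these shares were 34.8%, 38.3% and 26.9%. The whole Mb from 33 to 34 Mb held 3 peaks against input only, outside these edges. The peaks of the run held 14 to 56 tags (median 24.5), where the chromosome as a whole had a median of 16. The Mb from 33 to 34 Mb that contains this run held 26 peaks, the most of any Mb of the chromosome, followed by 17 to 18 Mb with 19, the Mb that contains VIM. Without the run the long arm density was 0.217 of that of the short arm, so the difference between the arms did not rest on it.

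Taken from its first peak to its last, the whole chromosome had 3.76 peaks per Mb. This was the fourth highest of 23 chromosomes, Y being left out, after chromosome 8 (17.6), chromosome 7 (5.14) and chromosome 9 (5.07), and was 2.06 times the median of the other chromosomes (1.83 per Mb). The arms stood on either side of that median. The short arm had 4.68 times the median density of the other chromosomes, and the long arm beyond 50 Mb, with 1.46 peaks per Mb, lay below it. Of 572 windows of 5 Mb on the other chromosomes, 49 held 27 or more peaks, the lowest count of any short arm window of chromosome 10. Of these, 21 lay on chromosome 8, 14 on chromosome 7, 10 on chromosome 9, 2 on chromosome 12 and 1 each on chromosomes 4 and 17. These comparisons are between stretches of the same libraries and were not tested. Copy number and coverage along the chromosome were not measured here, and their part in the difference between the arms was not tested.

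**Figure D2:**
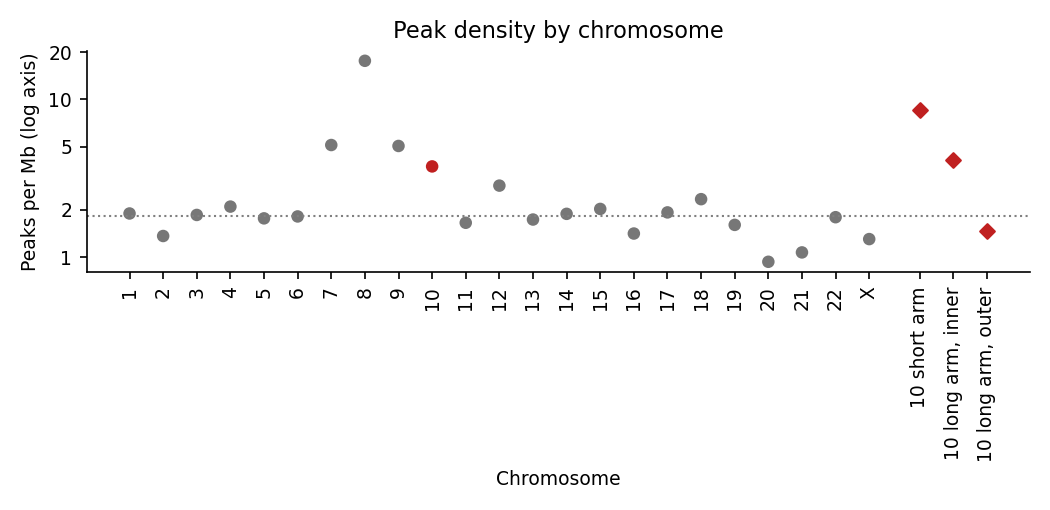
Peaks per Mb (log axis) for 23 chromosomes (circles, chromosome 10 in red) and for 3 stretches of chromosome 10 (red diamonds), the short arm, the long arm from 40 to 50 Mb (inner) and the long arm beyond 50 Mb (outer); the dotted line is the median of the other chromosomes, 1.83. The short arm (8.57) lies above every other chromosome except chromosome 8, and the outer long arm (1.46) lies below the line.

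Both lists were nearly balanced on chromosome 10. Against DLD-1/Mock there were 372 of its peaks, and with input as control 332, a ratio of 1.12, and 195 peaks were in both. The shared peaks were 38.3% of the 509 (95% Wilson interval 34.2% to 42.6%, which covers counting only), where the background over all 8723 peaks was 36.6%. A further 177 peaks (34.8%) were called against DLD-1/Mock only and 137 (26.9%) against input only, where the shares over all 8723 peaks were 39.5% and 24.0%. Chromosomes 7 and 9 were denser, with 5.14 and 5.07 peaks per Mb where chromosome 10 had 3.76. They leaned toward the list against DLD-1/Mock, with ratios of 2.20 and 1.86 and with 59.9% and 53.6% of their peaks in that list only. Among all 23 chromosomes the ratio of chromosome 10 was close to the median of the others (1.13, range 0.618 to 4.50).

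The balance differed along the chromosome. The ratio of peaks against DLD-1/Mock to peaks against input was 1.14 on the short arm and 1.07 on the long arm. The 2 outermost windows of the short arm leaned toward input, with 6 peaks against DLD-1/Mock only and 12 against input only up to 5 Mb, and 6 and 13 from 5 to 10 Mb. The busiest window, from 30 to 35 Mb, leaned the other way, with 34 against DLD-1/Mock only and 11 against input only. From 40 to 50 Mb the lists held 30 and 20 peaks, and 21 of the 41 peaks there were called against DLD-1/Mock only. Beyond 50 Mb it was 0.98. These are small counts and no test was made.

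Tags per peak were low and alike on both arms. The 509 peaks held 12 to 81 DLD-1/DKK-1 tags with a median of 16, and the median was 16 on the short arm and 16 on the long arm. The 95% Poisson limits around 16 tags are 9.15 and 26.0, so that most peaks of the chromosome could not be ranked by tags beyond counting error. Peaks called against both controls had a median of 17 tags, those against DLD-1/Mock only 16 and those against input only 15. The widest peak spanned 1934 bp and the median width was 482 bp (488 bp on the short arm and 469 bp on the long arm), where the median of all 8723 peaks was 473 bp. Wider peaks held more tags (Spearman's rho 0.91 across the 509 peaks, which share 1 library and whose width is drawn from the same tags).

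The 5 peaks with the most tags were 1503 to 1934 bp wide. The highest count was 81 tags (95% Poisson interval 64.3 to 101) at chr10:46486694-46488349, followed by 76 at chr10:51258433-51260366, 65 at chr10:35524064-35525669 and 61 at chr10:112195343-112197009, each called against both controls. The fifth, with 59 tags at chr10:46400161-46401663, was called against input only. Their fold enrichment was low, from 3.83 to 5.48 against input, and at least 3.96 against DLD-1/Mock for the 4 that were called against it. In all, 38 peaks (7.47%) held 30 or more tags, where the share over all 8723 peaks was 7.11%. By arm the shares were 7.29% on the short arm and 7.83% on the long arm. Of the 38 peaks, 0 were among the specific sites of the authors' list, which held 2.16% of the 509 peaks and 2.29% of all 8723. At such low shares a count of 0 among 38 peaks is not a result about peaks with many tags.

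**Figure D3:**
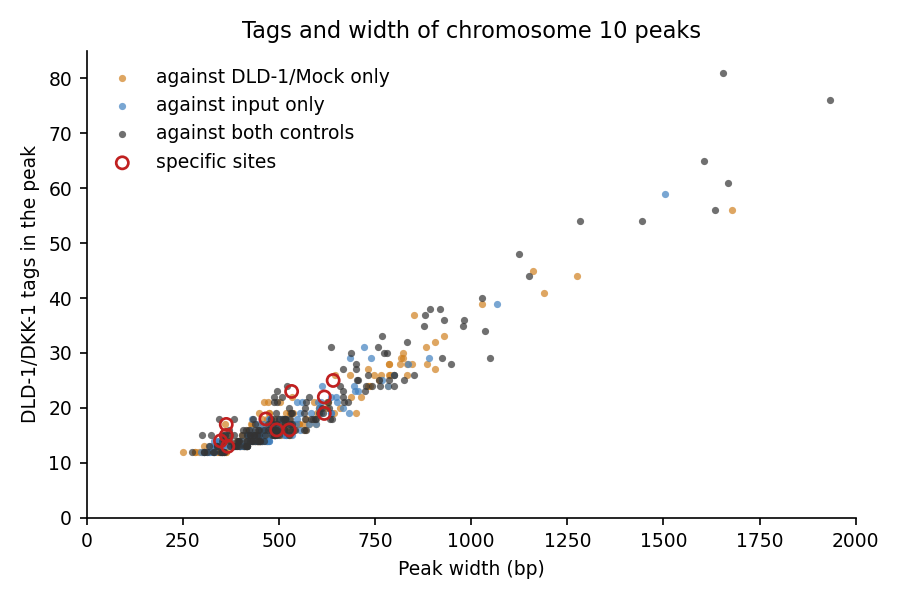
Tags of the DLD-1/DKK-1 library in each of the 509 peaks (vertical axis) against the width of the peak in bp (horizontal axis), coloured by the control against which it was called; red circles are the 11 specific sites. The specific sites, which are 2.16% of the 509 peaks, hold 13 to 25 tags, and the 38 peaks with 30 or more tags are not among them.

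Fold enrichment, the tags at the summit of a peak over the tags expected from background or control, ranged from 3.96 to 13.05 in the list against DLD-1/Mock and from 3.83 to 15.20 in the other, with a median of 7.60 in each list. A fold enrichment of at least 10 was reached by 29 of the 372 peaks against DLD-1/Mock (7.80%, where the background over that whole list was 9.12%) and by 24 of the 332 against input (7.23%, background 9.60%). On the short arm the shares were 8.56% and 8.44%, and on the long arm 6.09% and 4.67%. In the union of both lists 34 such peaks lay on the short arm and 8 on the long arm. A P value of 1e-10 or less was reached by 11 peaks against DLD-1/Mock (2.96%, background 3.48%) and by 9 against input (2.71%, background 2.94%). Together these were 16 peaks, 11 of them on the short arm, which held 67.4% of all peaks. Against DLD-1/Mock the shares were 2.72% on the short arm and 3.48% on the long arm, and against input 2.67% and 2.80%. In none of the shares over the whole chromosome did chromosome 10 exceed the background of the lists it belongs to.

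The highest fold enrichment against DLD-1/Mock was at SEC61A2 (13.05), described below. The highest against input, 15.20, was at chr10:3069035-3069522 with 21 tags, where it was 8.00 against DLD-1/Mock. The smallest P value against DLD-1/Mock belonged to chr10:33288392-33289673 in the run at 33 Mb, with 54 tags, a score (10 times −log10 of P) of 181.76 and a fold enrichment of 11.68. The smallest against input belonged to chr10:33222034-33223477 in the same run, also with 54 tags, with a score of 138.12 and a fold enrichment of 6.47. The lowest scores of the chromosome, just inside the cut-off, were 50.03 and 50.07. The empirical FDR, which MACS obtains by exchanging ChIP and control, was at least 33.84% against DLD-1/Mock (median 47.17%) and at least 65.45% against input (median 73.20%). Against DLD-1/Mock it was 100% for 1 peak of the chromosome, the one with the smallest P value. Against input it was 100% for 59 of the 332 peaks, among them the one with the smallest P value.

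MACS takes the expected tags from the genome-wide background, which was 1.184 tags per fragment of 150 bp, unless the control is higher nearby. Where a whole tag number divided by 1.184 gives the fold enrichment (within 0.006), the genome-wide value was taken to have been used. A higher local value can give the same ratio by coincidence, so the shares below may include some such peaks. The match was found for 79 of 257 peaks against DLD-1/Mock on the short arm and for 46 of 115 on the long arm. Over the whole chromosome it was 33.6% of that list, where all chromosomes together had 37.0% and chromosomes 7, 8 and 9 had 33.6% to 34.9%. Against input it was 36.4% on the short arm and 37.4% on the long arm, 36.7% over the chromosome and 39.4% over all chromosomes, and 24.1%, 27.1% and 29.1% on chromosomes 7, 8 and 9. The shares are descriptions of the peaks called and were not tested.

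**Figure D4:**
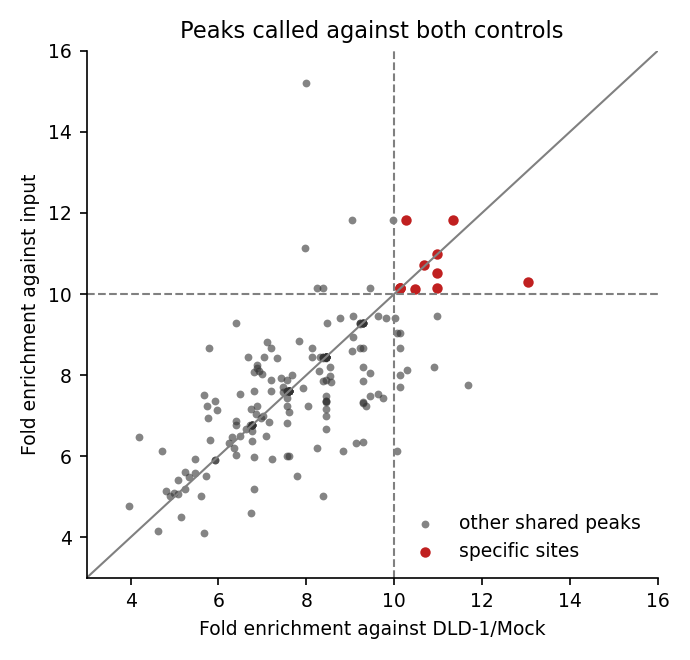
Fold enrichment against DLD-1/Mock (horizontal axis) and against input (vertical axis) of the 195 chromosome 10 peaks called against both; the solid line marks equal values and the dashed lines a fold enrichment of 10. The 11 specific sites (red) are all the peaks of the upper right corner, so their place there is not a finding. The peak with 15.20 against input has 8.00 against DLD-1/Mock.

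The authors' list of specific sites held 11 peaks of chromosome 10, or 2.16% of the 509, where the background over all peaks was 2.29%. On chromosome 10 these were exactly the peaks called against both controls with a fold enrichment of at least 10 each time. The study's methods do not state such a rule, but because the sites match it their fold enrichment is not a finding. The lower of both values was 10.12 for the site nearest the threshold from above, and 9.98 for the peak nearest from below, at chr10:14030348-14030671 with 15 tags. Another 18 peaks reached 10 against DLD-1/Mock but not against input or were absent there, and 13 did so against input alone. Of the 11 sites, 7 lay on the short arm (2.04% of its peaks) and 4 on the long arm (2.41%), and 6 carried a gene in the authors' list. All 6 symbols were found on chromosome 10 in RefSeq.

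The genes on the short arm were TAF3, SEC61A2 and VIM. TAF3 encodes a subunit of TFIID, the complex that recognises core promoters for RNA polymerase II. Its site, chr10:8049702-8050319, lay in intron 3, 1992 bp from exon 3 and 149331 bp downstream of the transcript start, and held 19 tags (95% Poisson interval 11.4 to 29.7). Fold enrichment against input was 11.82, and against DLD-1/Mock it was 10.27.

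SEC61A2 encodes an alpha subunit of the Sec61 channel, through which new proteins enter the endoplasmic reticulum. The site at chr10:12238095-12238735 lay in intron 6, 160 bp from exon 6, and held 25 tags (16.2 to 36.9), the most of the 11 sites. Enrichment against input was 10.30-fold and against DLD-1/Mock 13.05-fold, and the site belonged to a group of 3 peaks within 14685 bp that held 25 or 26 tags each.

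VIM encodes vimentin, the intermediate filament protein of mesenchymal cells. Its site, chr10:17318274-17318806, covered all 85 bp of exon 9, which is followed by the last of the 10 exons, and its centre was 8276 bp downstream of the start. The site held 23 tags (14.6 to 34.5), and its fold enrichment was 10.53 against input, close to the 10.98 against DLD-1/Mock.

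The genes on the long arm were PRKG1, NRG3 and CUEDC2. PRKG1 encodes cGMP-dependent protein kinase, which relays nitric oxide signals in smooth muscle. The site at chr10:52469449-52469815 lay in intron 1, 48040 bp from exon 1, and held 13 tags (6.92 to 22.2), the fewest of the 11. NRG3 encodes neuregulin 3, a ligand of the receptor tyrosine kinase ERBB4. Its site at chr10:83627843-83628190 lay in intron 1, 88 bp from exon 1, with its centre 593 bp downstream of the start, and held 14 tags (7.65 to 23.5). Both sites had a fold enrichment of 10.14 against each control, which corresponds to 12 summit tags divided by 1.184.

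The CUEDC2 site, whose promoter is printed above, covered all 140 bp of exon 1, and held 22 tags (13.8 to 33.3) with nearly equal fold enrichment against DLD-1/Mock (10.67) and input (10.72). The Poisson intervals of all 6 sites overlapped. Against DLD-1/Mock the FDR of the 6 was 34.18% to 47.74%, and with input as control it was 72.45% to 100%.

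The other 5 specific sites had no gene in the list. They lay at chr10:6991711-6992237, chr10:17668842-17669204, chr10:29706383-29706876 and chr10:31547482-31547844 on the short arm and at chr10:107241418-107241883 on the long arm. These sites held 15 to 18 tags. The site at 17668842 had the highest score of the 11 against each control, with DLD-1/Mock as control 87.51 and with input 82.37. It held 17 tags in 363 bp. None of the 11 sites reached a score of 100, which corresponds to a P value of 1e-10.

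The long transcripts of PRKG1 (1304329 bp) and NRG3 (1109492 bp) each held 4 further peaks beside the specific site. In PRKG1 these had 14 to 18 tags, 2 were called against both controls and 2 against DLD-1/Mock only. In NRG3 they had 13 to 15 tags, 2 were called against both, 1 against DLD-1/Mock only and 1 against input only. In neither transcript did a further peak reach a fold enrichment of 10, the highest being 9.29. The TAF3 transcript held 1 further peak, called against input only with 15 tags, and those of SEC61A2, VIM and CUEDC2 held 0.

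DKK1, whose product was immunoprecipitated, had no entry in the list of specific sites. In RefSeq order it is the first protein-coding gene that starts beyond the end of PRKG1. The first peak beyond the end of the PRKG1 transcript, at chr10:53746164-53746622, began 20885 bp after it, held 15 tags and was called against DLD-1/Mock only, with a fold enrichment of 7.55, a score of 58.13 and an FDR of 46.41%. The next peak followed 349024 bp after the transcript. Positions of DKK1 in hg18 were not used here, so whether the peak at 53746164 lies in DKK1 was not determined, and whether tags of the introduced DKK-1 sequence, which the DLD-1/DKK-1 cells carry, were aligned to it was not tested. Of 7 genes of the Wnt pathway on chromosome 10 (DKK1, SFRP5, WNT8B, FRAT1, FRAT2, BTRC and TCF7L2), 0 were named in the list of specific sites. That list gave a gene to only 6 sites of the whole chromosome. The share of all chromosome 10 genes named in it was not taken, so the 0 is not a result about these genes. The full peak lists carry no genes, so peaks below the threshold of that list were not assigned to them.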

How the data were processed

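Reads of 40 bp had been mapped by the authors with CASAVA 1.7 (ELANDv2) to the hg18 build. They kept unique alignments and called peaks with MACS 1.4.0beta (effective genome size 2700000000 bp, band width and fragment size 150 bp, model fold 10 to 30, local backgrounds of 1000 and 10000 bp, at most 2 tags per position). Tags per peak are a count, deposited without normalization. Fold enrichment is a ratio, the FDR is a percent and the score is −log10 of P times 10, all deposited as MACS wrote them. Each list came from 1 ChIP library and 1 control.

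Lists were joined on identical coordinates with pandas 2.3.3 under Python 3.11.15, intervals came from scipy 1.17.1 (numpy 2.4.6) and plots from matplotlib 3.10.9. A peak was placed by its middle. Interval functions were tested on simulated peaks. Positions are in hg18, counted from 1. Sequences came from RefSeq (GRCh38.p14), since no hg18 genome was used. With 1 library per condition no test was made. Intervals and counts cover counting error only, and PCR reads are not independent molecules.

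Named were all specific sites, the 5 peaks with most tags, the 5 busiest windows and the Wnt pathway genes of chromosome 10. A list of study genes in the same rule is not reported, since members of it had been taken from the specific sites. The members and lists were chosen with earlier results of these data known.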

Additional observations from a re-analysis of the deposited data

How the results depend on the processing

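Of 37 alternatives, 24 left their result within a factor of 1.5 (for the shared percentage, within its Wilson interval) and 13 did not. The 24 include matching the lists by 1 bp in common, by a reciprocal overlap of 50% and by summits within 100 bp. Both lists were called on the same ChIP library, so these had little room to change a result. They left the counts at 509 peaks and 195 shared peaks. Requiring a P value of 1e-10 left 16 peaks, 25.0% of which met it in both lists (all 16 were in both lists before the filter), a busiest window of 1 peak per Mb (still 30 to 35 Mb), a median of 35.5 tags and 922 bp, 0 specific sites and a density 3.65 times the median of the other chromosomes. Keeping fold enrichments from 10 up left 42 peaks, 26.2% of which reached 10 in both lists (29 were in both lists before the filter), and a long to short arm density ratio of 0.0987 in place of 0.203. An FDR of 5% left 0 peaks. Specific sites numbered 30 with a fold enrichment of 9 in both lists and 1 with 11, in place of 11. Those falls follow from the filters, and the cause of the changes in shares, ratios and medians was not tested. The arm ratio was 0.188 to 0.222 under the other alternatives. They included, chosen after seeing the data, each list alone, a boundary at 50 Mb, leaving out the run at 33 Mb and leaving out the stretch around 40 Mb. The widest stretch without a peak lay on the long arm, so the boundary set there does not divide the arms. With windows of 10 Mb the busiest was 10 to 20 Mb (10.6 per Mb). No paired analysis was possible because there was a single library of each kind, and nothing here was tested.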

Other observations

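Most peaks stood alone at short range, and 130 of the 509 (25.5%) lay within 10000 bp of another. The share is not given here for other chromosomes, so it is not a result about chromosome 10. Joining peaks at that distance gave 430 regions, of which 379 held 1 peak, 39 held 2 and 12 held 3 or more. Of the 12, 10 lay on the short arm, which held 67.4% of the peaks at the higher density, and 3 of the 10 were parts of the run at 33 Mb. Beside the run at 33 Mb, the largest was a group of 6 peaks at chr10:31641780-31659513 with 14 to 27 tags each, 3 of them called against both controls and 3 against DLD-1/Mock only. A group of 3 at chr10:51252065-51262533 contained the peak with 76 tags, and all 3 were called against both controls with 26 to 76 tags.

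On the long arm the Mb from 49 to 50 Mb stood apart, with 18 of the 31 peaks between 45 and 50 Mb. These 18 peaks held 14 to 39 tags (median 17), and 12 were called against DLD-1/Mock only, 4 against input only and 2 against both. Over the 509 peaks of the chromosome the shares were 34.8%, 26.9% and 38.3%. The Mb was picked for its count, and no test was made. The peaks with 81 and 59 tags lay in the same 5 Mb window.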
